A study of Arabidopsis thaliana with 39 samples.

Results

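Small RNAs were counted on 53 genes that encode factors of mRNA decay and 3′ end processing in Arabidopsis, chosen as a list by name and role, out of 37184 genes in the counts. The list holds 9 decapping factors, 3 exonucleases that degrade RNA from the 5′ end and 3 genes of the SKI complex. A further 8 are grouped with the exosome: genes of the exosome, its helicases and the exonuclease gene *SOV*. The rest are 4 genes of nonsense-mediated decay (NMD), 6 deadenylation factors, 3 poly(A)-binding proteins and 17 factors of cleavage and polyadenylation. The list includes the genes mutated in the plants themselves, except *COILIN*, and was drawn up by role, with earlier results of these data known. The quantity measured on each gene was the number of small RNA reads on its exons, not the level of its mRNA.

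The study sequenced small RNAs of 10 mutants in 3 sets, each with its own wild type of the Col-0 accession and with 3 libraries per group, to ask in which of them mRNAs become a source of siRNAs. In the first set, Col-0 (1) went with the mutants *ncb-4*, *lsm1a lsm1b*, *upf3-1* and *upf1-5*. In the second, Col-0 (2) went with *fy-2*, *rsr1-2*, *ccr4a*, *ahg2-1* and *pab2 pab4*, and both sets were total plants, seedlings of 14 days on MS. The third held *cstf64-2* and Col-0 (3), total plants of 21 days grown on soil. By the paper, both were grown side by side, but the small RNA data of this Col-0 belong to an earlier submission. *lsm1a lsm1b* and *pab2 pab4* are double mutants, the latter with the related *PAB8* intact, *ncb-4* is a mutant of coilin, the scaffold protein of Cajal bodies, and *rsr1-2* is a knock-out. The hypomorphic alleles *upf1-5* and *fy-2* retain part of the gene's function, and the sterile *cstf64-2* homozygotes were picked by their appearance. Whole plants were used throughout, so fewer cells of a type and less RNA per cell cannot be told apart in any result here.

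In the turnover of an mRNA, deadenylases such as those of the CCR4-NOT complex first shorten the poly(A) tail that poly(A)-binding proteins cover. The cap is then removed by DCP2 with its partners DCP1, VARICOSE (VCS), DCP5 and the LSM1 ring, after which the cytoplasmic exonuclease XRN4 degrades the body, while the exosome works from the other end with the SKI complex in the cytoplasm and with the helicases MTR4 and HEN2 in the nucleus. The UPF proteins direct mRNAs with premature stop codons into decay. In the nucleus, the CPSF and CstF complexes cut the nascent transcript at its polyadenylation site and poly(A) polymerases add the tail. This cut also precedes termination by RNA polymerase II. RNA that escapes these steps can be copied into double-stranded RNA and diced into siRNAs in plants.

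Several listed genes have close paralogs, and a short read from a stretch that both copies share cannot be assigned to either one. Below are 4 such stretches of coding sequence, read from TAIR10.1 and shown because a read from them fits both genes of a pair. How far such reads entered the counts of single genes was not tested. Each run is 30 bases of one gene, 5′ to 3′ on the coding strand, and capitals mark bases identical in both members of the pair without a break.
PAB2 (chromosome 4, 16337986 to 16338015, + strand): aaaTTTGATGATAAGGAGTGGTATGTtggt
PAB4 (chromosome 2, 9944369 to 9944398, + strand): aagTTTGATGATAAGGAGTGGTATGTgggt
CAF1A (chromosome 3, 15952334 to 15952363, - strand): tgagGTTAACCGGGCGGTTGGGAAATGTCA
CAF1B (chromosome 5, 7365726 to 7365755, - strand): tgaaGTTAACCGGGCGGTTGGGAAATGTCA
MTR4 (chromosome 1, 21989597 to 21989626, - strand): aacCAGAGAGTTATTTACACTTCTCCTata
HEN2 (chromosome 2, 2895504 to 2895533, + strand): aagCAGAGAGTTATTTACACTTCTCCTttg
PAPS2 (chromosome 2, 11028204 to 11028233, - strand): tgcaTACCCATGCATGAATTCTAGTTACAA
PAPS4 (chromosome 4, 15852254 to 15852283, + strand): agctTACCCATGCATGAATTCTAGTTACAA
*PAB2* and *PAB4* shared 3 different 21-mers in their exons, *MTR4* and *HEN2* 4, *XRN2* and *XRN3* 20, and *CAF1A* and *CAF1B* 26. The most similar pairs were *VCS* and *VCR* with 446 shared 21-mers, the RRP45 genes *CER7* and *RRP45A* with 128, and the poly(A) polymerase genes *PAPS2* and *PAPS4* with 89. Over the list, the median share of a gene's exon 21-mers found elsewhere in the genome was 0.392%, it exceeded 5% for 5 genes (*RRP45A*, *VCR*, *VCS*, *PAPS1* and *CER7*), and it was 0 for 7 genes.

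A library of the first set held 6437260 to 7968503 reads on genes, one of the second 7767365 to 9151932 and one of the third 2015212 to 2323991. Of these, 506 to 691, 519 to 1260 and 291 to 832 reads per library lay on the 53 listed genes. All counted lines, unassigned reads included, added up to more than the study's library sizes in the first 2 sets and to less in the third. Reads mapping to more than one place thus appear to have been counted at each of them in the first 2 sets only, which the sources do not state. For this reason levels of the third set are not compared with those of the others. Within the third set, unaligned reads made up 17.7%, 24.1% and 22.6% of all counted lines in Col-0 (3). In *cstf64-2* they made up 26.3%, 25.9% and 26.8%, and the bearing of this on the results was not tested. Over 6 marker genes of leaf tissue, the libraries held 3146 to 6658, 7017 to 10737 and 524 to 1272 reads in the 3 sets, against 0 to 8 reads over 5 floral markers and 0 to 29 over 4 seed storage genes. The leaf markers differed between groups: *ncb-4* had 6270 to 6658 reads on them, *upf1-5* 3249 to 3549 and *upf3-1* 3146 to 3702, where Col-0 (1) had 4426 to 4501. In the second set *ahg2-1* had 10014 to 10451, *ccr4a* 9251 to 10737 and *pab2 pab4* 9241 to 10663, above the 7459 to 8453 of Col-0 (2). The part of these differences in the results on listed genes was not tested. The other 4 mutants overlapped with their Col-0.

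In wild type, few small RNA reads fell on these genes. The median listed gene had 15 reads in the 3 libraries of Col-0 (1) together, 19 in Col-0 (2) and 8 in Col-0 (3). The floor of detection was set at 3 reads, for counting error only, and 10, 11 and 23 of the 53 genes had no more than this in each library. Levels are compared between genes as normalised counts in RPM, reads per M reads on genes, divided by exon length in kb. On this scale *PAB2* was highest in Col-0 (1) at 5.8 ± 0.919 RPM per kb (SD, n = 3), from 105, 75 and 78 reads. It was also highest in Col-0 (2) at 4.53 ± 0.38 RPM per kb (SD, n = 3), from 86, 87 and 96 reads. The next levels in Col-0 (1) were 2.37 ± 0.283 RPM per kb for *DCP5*, a decapping cofactor that represses translation, and 2.31 ± 0.828 for *RRP44A* (SD, n = 3), the catalytic exonuclease associated with the exosome. These 2 did not differ beyond their spread and had changed places in Col-0 (2), at 1.82 ± 0.61 and 2.11 ± 0.519 RPM per kb (SD, n = 3).

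*RRP44A* led the list in Col-0 (3), with 149, 97 and 118 reads or 18.4 ± 3.61 RPM per kb (SD, n = 3), and *PAB2* followed with 4.63 ± 1.28 (SD, n = 3). In the SKI and NMD groups no wild-type mean passed 1 RPM per kb in any set: the highest were 0.609 ± 0.376 for the SKI8 homologue *VIP3* in Col-0 (2) and 0.945 ± 0.22 in Col-0 (1) for AT1G28260 (SD, n = 3), a gene with the annotated product telomerase activating protein Est1. *CAF1A*, a catalytic deadenylase of the CCR4-NOT complex, was the highest deadenylation gene in all 3 wild types, at 1.06 ± 0.184, 0.915 ± 0.13 and 2.04 ± 2.64 RPM per kb (SD, n = 3). Its 3, 0 and 13 reads in Col-0 (3) show how far single libraries disagreed there. Among the 5′ exonucleases, *XRN4* was highest in Col-0 (1) at 0.703 ± 0.114 and the nuclear *XRN3* in Col-0 (2) and Col-0 (3) at 0.675 ± 0.273 and 1.7 ± 1.57 RPM per kb (SD, n = 3). In the 5′ exonuclease, NMD and deadenylation groups, the 2 highest genes of each wild type did not differ beyond their spread. *PAPS4* had the highest level of the cleavage and polyadenylation group in Col-0 (1) and Col-0 (2), with 1.42 ± 0.732 and 0.862 ± 0.058 RPM per kb, and *PAPS1* in Col-0 (3) with 2.82 ± 1.45 (SD, n = 3).

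**Figure D1:**
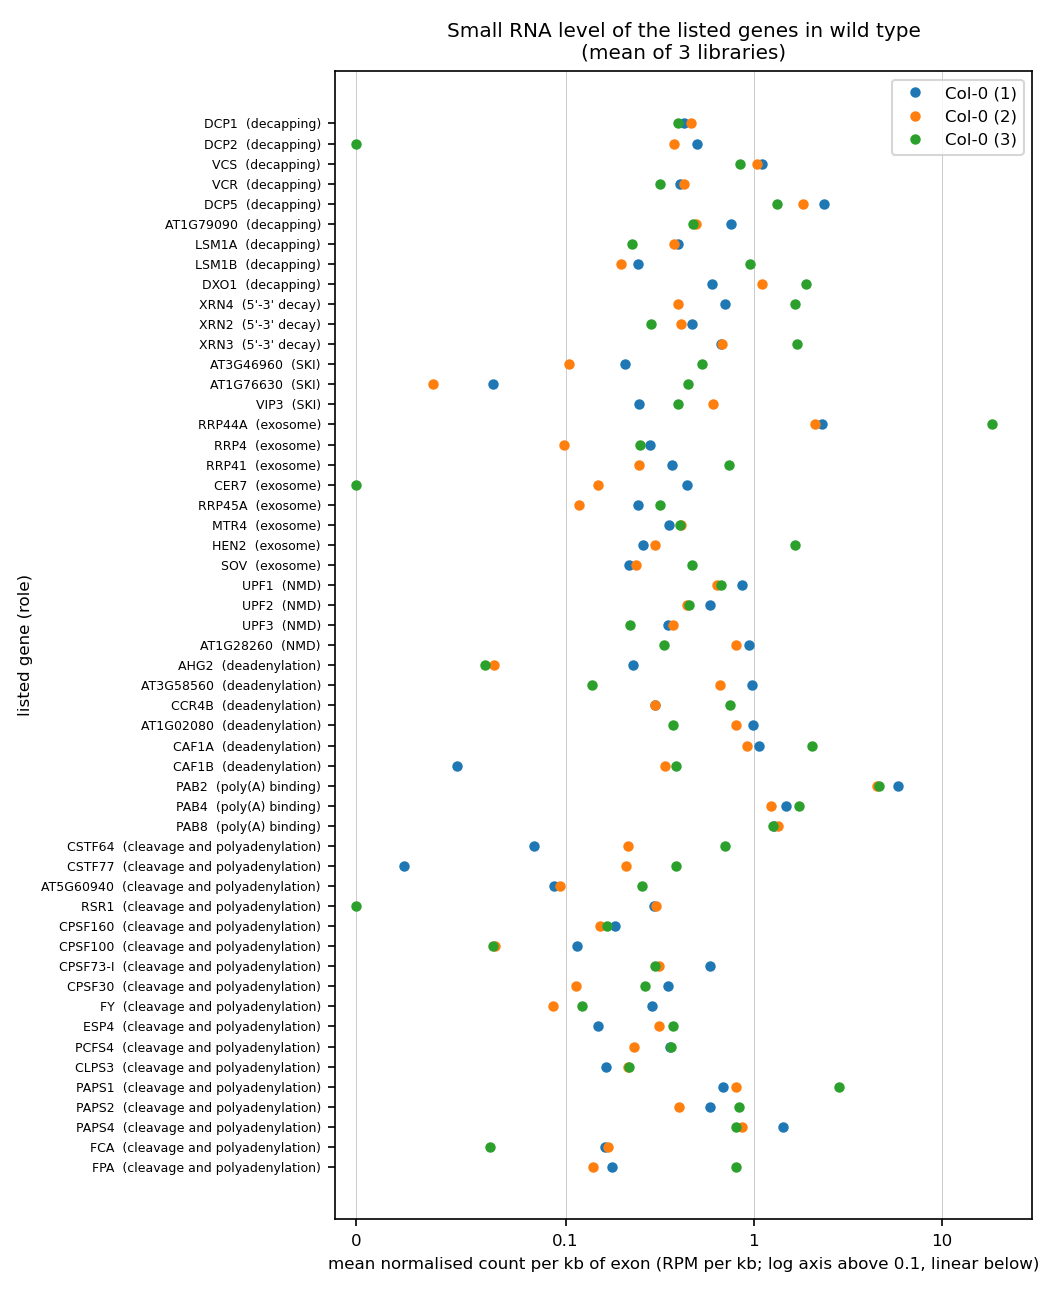
Mean small RNA level of each of the 53 listed genes in the 3 wild types, in normalised RPM per kb of exon (horizontal axis, logarithmic above 0.1), one point per wild type and genes ordered by role. *PAB2* at 5.8, 4.53 and 4.63 RPM per kb stands right of most genes in each wild type, and *RRP44A* reaches 18.4 in Col-0 (3). Genes are to be compared within a wild type, since levels of Col-0 (3) are not comparable with those of the other sets.

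The mutated genes come first, since they bear on the labels. *PAB2* (AT4G34110, chromosome 4, 16336291 to 16340314) had 86, 87 and 96 reads in Col-0 (2) but 4, 9 and 5 in *pab2 pab4*. The groups lay far apart, at 0.587 ± 0.29 against 12.1 ± 1.14 RPM (SD, n = 3), a log2 fold change (log2FC) of -4.37 (SE 0.28, adjusted p = 2.74e-10, Benjamini-Hochberg adjustment after the quasi-likelihood test of edgeR). *PAB4* (AT2G23350) had 11, 4 and 22 reads against 18, 30 and 21, with overlapping raw counts and a log2FC of -1.38 (SE 0.42, adjusted p = 0.0266, edgeR). This call was lost without Col-0 (2) replicate 2 or *pab2 pab4* replicate 1 or 2, with adjusted p-values up to 0.13 (edgeR), and without *pab2 pab4* replicate 3 the log2FC was -2.17. *PAB8*, the third poly(A)-binding protein on the list, had 30, 28 and 31 reads in the mutant and 22, 21 and 35 in Col-0 (2). *UPF3* had 1, 0 and 3 reads in *upf3-1* and 4, 4 and 5 in Col-0 (1), 4 against 13 pooled reads. Their TMM-scaled ratio was 0.206 with a 95% counting interval from 0.0488 to 0.665, and with the library sizes given by the study it was 0.313 with an interval from 0.0744 to 1.01, which includes no difference.

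The other mutated genes gave no drop like that of *PAB2* at this depth. *UPF1*, the NMD helicase, had 30, 20 and 28 reads in *upf1-5* and 27, 17 and 20 in Col-0 (1), overlapping groups with a log2FC of -0.11 (adjusted p = 0.88, edgeR). *LSM1A* had 0, 0 and 0 reads in *lsm1a lsm1b* against 4, 0 and 1, and *LSM1B* 1, 3 and 1 against 0, 3 and 1. *AHG2*, whose PARN-type nuclease the paper links to mitochondria, had 1, 0 and 2 reads in *ahg2-1* against 1, 1 and 2. These 3 genes were near the floor in wild type and say little about the labels. AT3G58560, listed as the gene mutated in *ccr4a*, had 9, 7 and 9 reads against 3, 20 and 12. *RSR1*, a relative of *CSTF64*, had 4, 8 and 6 reads in *rsr1-2* against 0, 8 and 3, and *CSTF64* itself 5, 6 and 7 in *cstf64-2* against 4, 3 and 2 in Col-0 (3). *FY* rose in its own mutant, as described with *fy-2*.

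Each mutant was then compared with its Col-0 over all genes that passed the filter on low counts, and calls needed a log2FC beyond 1 in either direction with an adjusted p below 0.05. Of the 53 listed genes, 34 passed this filter in at least 1 mutant, 8 in all 10 and 19 in none, with 19 to 23 passing in a given mutant. Of 203 pairs of listed gene and mutant tested, 25 were called, 15 up and 10 down, on 17 genes. *cstf64-2* held 10 of the calls, all up, in a comparison that called 13.6% of all genes up. The other 9 mutants together held 5 up and 10 down, where 0.462% to 4.39% of all genes tested in a mutant were called up and 0.154% to 7.76% down. Among these calls are *PAB2* and *PAB4* in *pab2 pab4* and *FY* in *fy-2*, genes mutated in those plants. Mutants of a set share the same 3 Col-0 libraries, so a high or low wild-type library enters all of their comparisons.

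In the mutants of 14 days, the calls down depended on the scaling. After TMM normalization the median log2FC of the listed genes that passed the filter ran from -0.68 in *pab2 pab4* to -0.05 in *ccr4a*, below the median of protein-coding genes (-0.32 to -0.03) in each of the 9 mutants. Scaled to the library sizes given by the study, the median of all genes moved up by 0.24 to 0.69 on the log2 scale. Of the 10 calls down, 2 were also called with these sizes, *PAB2* in *pab2 pab4* at -3.92 and AT1G28260 in *ncb-4* at -1.78. All 5 calls up were also called. A gene called down in these mutants therefore had fewer reads relative to the median gene, and its reads per sequenced read need not differ. The share of calls that were up, over all genes, went from 27.7% to 92.0% in *pab2 pab4* and from 28.7% to 98.2% in *lsm1a lsm1b* with the study's sizes. In the other 7 mutants of this age it started at 29.5% to 75.0% and ended at 73.7% to 93.6%.

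**Figure D2:**
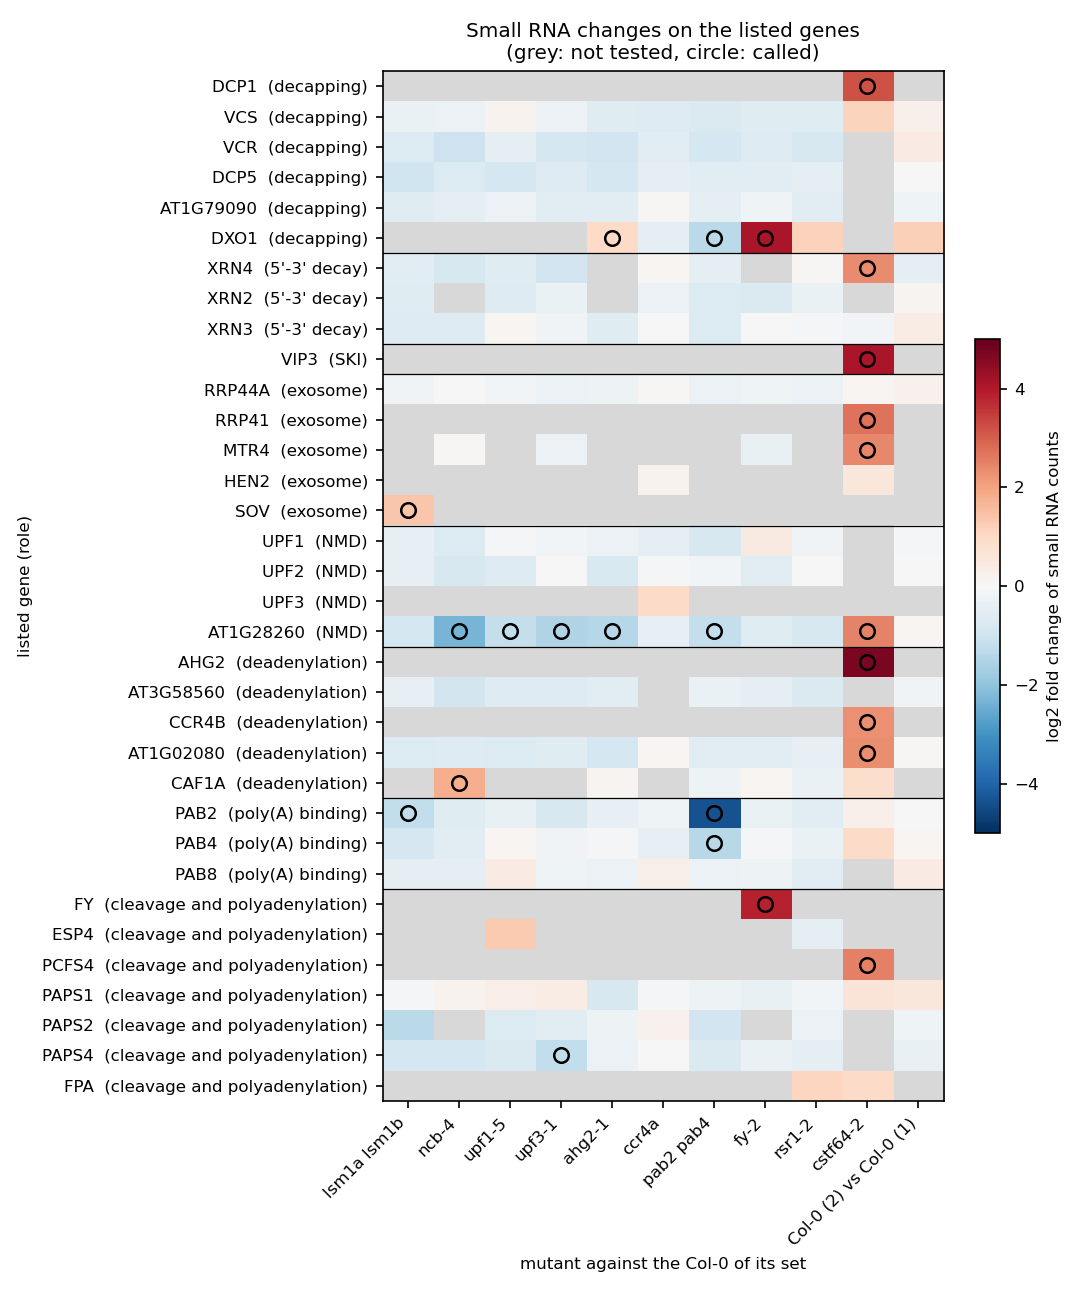
Log2FC of small RNA counts on the 34 listed genes that passed the filter in at least 1 mutant (lines of the grid, by role) in each mutant against the Col-0 of its set and in Col-0 (2) against Col-0 (1) (columns). Colour runs from -5 to 5, grey cells were not tested and circles mark called genes, of which 10 lie in the column of *cstf64-2*.

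In *cstf64-2*, small RNAs rose on listed genes of 7 roles, from 4.96-fold to 34.9-fold in the TMM-scaled pooled reads of the called genes. Called up were 10 of the 19 listed genes that passed the filter and called down 0, while 13.6% of all 9207 genes tested were called up and 3.3% down. The median log2FC was 2.27 for the 19, 0.28 for protein-coding genes and -0.00 for all genes tested. Since 9 of the 10 called genes had fewer than 10 reads in every Col-0 (3) library, they passed the filter through the mutant libraries, and the count over tested genes is no support by itself. Of the 10 tested genes with 10 or more reads in at least 1 library of Col-0 (3), 1 was called, *XRN4*. Over all 53 genes, tested or not, 18 had normalised counts in every mutant library above every wild-type library and 0 had them below. The same held for 14.9% and 9.27% of the 31803 genes with at least 1 read in these 6 libraries.

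*XRN4* (AT1G54490, chromosome 1, 20350109 to 20356916), the cytoplasmic exonuclease, had 86, 69 and 60 reads in *cstf64-2* and 8, 19 and 8 in Col-0 (3). The groups lay far apart, with 30.6 ± 4.32 against 5.86 ± 3.2 RPM (SD, n = 3), and the log2FC was 2.37 (SE 0.31, adjusted p = 0.000169, edgeR). Its pooled reads stood in a ratio of 5.24 (95% counting interval 3.65 to 7.71). *DCP1*, the activator of the decapping enzyme, had 12, 13 and 21 reads against 1, 0 and 3, a log2FC of 3.19 (SE 0.66, adjusted p = 0.00312, edgeR) and a ratio of 9.8 (3.58 to 37.5).

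*VIP3* (AT4G29830), whose protein serves in the SKI complex and in the Paf1 complex of transcription, had 32, 14 and 20 reads against a single read in each wild-type library. Its log2FC was 4.08 (SE 0.58, adjusted p = 0.000269, edgeR), and the ratio of its pooled reads was 18.7 (95% counting interval 6.14 to 93.2). *AHG2* (AT1G55870) had 13, 12 and 16 reads against 0, 1 and 0. With 1 read in all of Col-0 (3), its ratio of 34.9 has a counting interval from 5.93 to 1410, and the fitted log2FC of 4.72 (SE 0.73, adjusted p = 0.00048, edgeR) depends on the prior count. Both genes thus rose from next to no reads, and the upper ends of their ratios are not fixed by these libraries.

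Further deadenylation genes rose in the same libraries. *CCR4B* (AT3G58580), a catalytic deadenylase, had 24, 18 and 22 reads against 2, 5 and 4, a log2FC of 2.27 (SE 0.42, adjusted p = 0.00149, edgeR). AT1G02080, listed with deadenylation and annotated as a transcription regulator, had 41, 22 and 39 reads against 7, 4 and 6, a log2FC of 2.33 (SE 0.39, adjusted p = 0.000831, edgeR). The groups of both genes lay well apart. *CAF1A*, with 12, 11 and 12 against 3, 0 and 13 reads, overlapped with wild type (log2FC 0.88, adjusted p = 0.371, edgeR).

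In the exosome group, the core subunit *RRP41* had 15, 11 and 22 reads against 4, 1 and 1 and the nuclear helicase *MTR4* 17, 17 and 17 against 3, 3 and 2. Their log2FC values were 2.71 (SE 0.57, adjusted p = 0.0034, edgeR) and 2.39 (SE 0.41, adjusted p = 0.00102, edgeR). The *MTR4* paralog *HEN2*, which shares the stretch printed above, had 25, 25 and 24 reads against 13, 18 and 12, groups that did not overlap but with a log2FC of 0.55 (adjusted p = 0.18, edgeR). *RRP44A*, the member with most reads, had 187, 152 and 115 against 149, 97 and 118 and a log2FC of 0.08 (adjusted p = 0.746, edgeR), within the spread of its libraries.

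AT1G28260 had 21, 12 and 15 reads in *cstf64-2* against 2, 1 and 4, a log2FC of 2.49 (SE 0.51, adjusted p = 0.00292, edgeR). In the cleavage and polyadenylation group *PCFS4*, a relative of the yeast termination factor Pcf11, had 18, 11 and 20 reads against 2, 1 and 4, a log2FC of 2.52 (SE 0.53, adjusted p = 0.00316, edgeR). *PCFS4* was the only called member of the 3 tested there. *FPA*, an RNA-binding protein that promotes use of proximal poly(A) sites, had 21, 23 and 14 reads against 7, 6 and 12 and *PAPS1* 31, 26 and 29 against 14, 9 and 24. Neither passed the test, with log2FC values of 0.97 (adjusted p = 0.0755, edgeR) and 0.63 (adjusted p = 0.193, edgeR).

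The poly(A)-binding genes were not called in *cstf64-2*. *PAB2* had 43, 25 and 39 reads against 27, 18 and 31, with overlapping groups, and *PAB4* 21, 9 and 32 against 11, 6 and 10. Of 9 decapping genes 2 were tested, and *VCS*, the scaffold of the decapping complex, had 23, 14 and 27 reads against 3, 10 and 12 (log2FC 1.11, adjusted p = 0.0872, edgeR). *XRN3* had 18, 6 and 14 against 0, 14 and 21. All 10 calls in this mutant were kept when any library was left out, and all were also called with the study's library sizes and in DESeq2. The size of 5 of them moved with single wild-type libraries: the log2FC was 4.44 for *DCP1*, 3.09 for AT1G28260 and 3.13 for *PCFS4* without Col-0 (3) replicate 3, 3.60 for *RRP41* without replicate 1, and 6.70 for *AHG2* without replicate 2, which leaves no wild-type read.

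**Figure D3:**
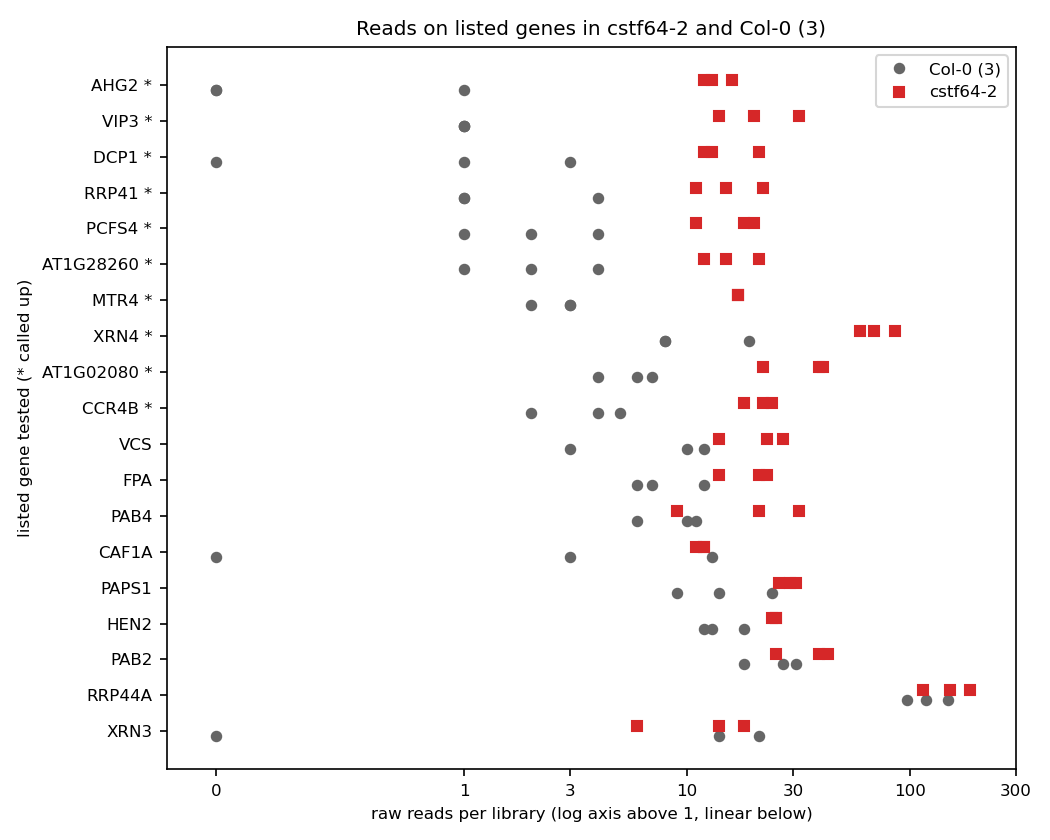
Raw reads per library (horizontal axis, logarithmic above 1) on the 19 listed genes tested in *cstf64-2*, with red squares for the 3 mutant libraries and grey circles for the 3 of Col-0 (3), ordered by log2FC. The 10 genes with an asterisk were called up, and *XRN4*, with 86, 69 and 60 against 8, 19 and 8 reads, has the highest counts among them.

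Among the 34 listed genes too low to be tested in *cstf64-2*, 6 had all mutant libraries above all wild-type libraries after normalization. They were *DCP2*, AT1G79090, *LSM1B*, *CER7*, *CSTF64* and *CPSF100*. The RRP45 subunit gene *CER7* had 5, 5 and 4 reads against none, with a lower limit of 2.83 on the TMM-scaled ratio (95% counting interval). *DCP2*, the decapping enzyme, had 2, 2 and 3 reads against none, at the floor in both groups. AT1G79090, annotated as a topoisomerase II-associated protein and listed with decapping, had 10, 7 and 10 against 0, 4 and 5. For *LSM1B* there were 9, 5 and 4 against 3, 1 and 2 reads, and for *CPSF100*, a subunit of the cleavage complex, 10, 2 and 3 against 0, 0 and 1. The other 28 untested genes had overlapping groups on this scale.

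The study asked whether siRNAs in *cstf64-2* arise where 2 genes face each other with their 3′ ends, so the gap between each listed gene and the nearest protein-coding gene converging on it was measured on TAIR10.1. Under 400 bp, overlaps included, this gap was found for 28 of the 53 listed genes (52.8%), where the share among all protein-coding genes was 31.1%. All 10 genes called up in *cstf64-2* were among these 28. Of the 28, 16 passed the filter, with a median log2FC of 2.35, and 15 had mutant libraries all above wild type. Of the 25 genes with a wider gap or none, 3 were tested and 0 called, with a median of 0.88, and 3 had mutant libraries all above wild type. Since 9 of the 10 called genes passed the filter through the mutant libraries, the calls and medians of tested listed genes are no support by themselves. The counts of 15 of 28 and 3 of 25 do not depend on the filter. Over all protein-coding genes tested, 57.4% of those with a gap under 400 bp and 11.4% of the others were called up, with medians of 1.55 and 0.06. Without the filter, 28.9% and 10.3% of the protein-coding genes with a read had all mutant libraries above wild type.

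Among the called genes, *CCR4B* overlapped its convergent neighbour by 215 bp, *VIP3* by 85 bp, *AHG2* by 76 bp, AT1G28260 by 53 bp, *RRP41* by 17 bp and *MTR4* by 6 bp. Gaps of 37 bp, 139 bp, 363 bp and 364 bp separated *XRN4*, *DCP1*, AT1G02080 and *PCFS4* from theirs. The neighbour was itself called up for 4 of them, with log2FC values of 2.83 beside *XRN4* (AT1G54500), 2.37 beside *VIP3* (AT4G29840), 1.64 beside *CCR4B* (AT3G58570) and 4.25 beside AT1G02080 (AT1G02090). It was not called beside *DCP1* (0.29) and *PCFS4* (0.66) and was too low to be tested for the other 4. A close convergent gene did not go with a call in every case: *XRN3* with a gap of 33 bp had a log2FC of -0.12, and *RRP44A*, which overlaps its neighbour by 43 bp, had 0.08. The strand setting of the counts is not given in the sources used here, so reads of a gene and of an antisense transcript across its exons cannot be told apart, and exons on the opposite strand overlap those of *VIP3* over 544 bp, of *FPA* over 458 bp and of AT1G28260 over 329 bp.

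**Figure D4:**
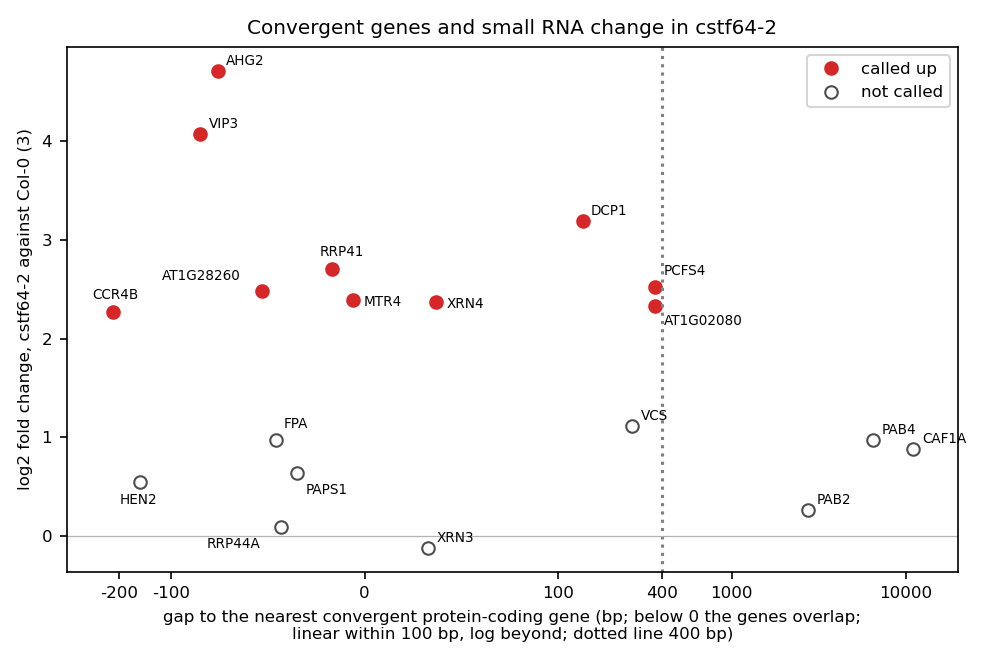
Log2FC in *cstf64-2* against Col-0 (3) (vertical axis) by the gap to the nearest convergent protein-coding gene in bp (horizontal axis, linear within 100 bp, below 0 the genes overlap) for the 19 listed genes tested. Red points are the 10 genes called up, which all lie left of the dotted line at 400 bp. Of these 10, 9 passed the filter through the mutant libraries.

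In *fy-2*, a mutant of a CPSF subunit, *DXO1* and *FY* rose. Their log2FC values lay within their errors of each other and above those of the other calls up in the seedlings of 14 days. *DXO1* (AT4G17620, chromosome 4, 9821874 to 9825039) encodes an enzyme that removes NAD caps. It had 588, 234 and 114 reads in *fy-2* and 16, 18 and 11 in Col-0 (2), or 33.0 ± 26.6 against 2.0 ± 0.679 RPM (SD, n = 3). All mutant libraries lay far above wild type although they spread widely among themselves, and *DXO1* carried 588 of the 1260 reads on listed genes in the first of them. The log2FC was 4.07 (SE 0.42, adjusted p = 3.33e-07, edgeR), and it ranged from 3.19 (without *fy-2* replicate 1) to 4.44 with 1 library left out and was 5.23 against the libraries of Col-0 (1). Genes next to *DXO1* on chromosome 4 did not share the rise: AT4G17616 had 3, 4 and 0 reads in *fy-2* and 1, 3 and 2 in Col-0 (2), and AT4G17640 had 5, 7 and 4 against 5, 2 and 10. The paper already reports siRNAs from *DXO1* in *fy-2*. It found the mRNA of *DXO1* unaltered there and leaves the functional meaning open.

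*FY* itself (AT5G13480, chromosome 5, 4326397 to 4331971), the WD40 subunit of CPSF, had 56, 31 and 23 reads in *fy-2* and 1, 2 and 3 in Col-0 (2). The groups stood at 3.88 ± 1.86 and 0.249 ± 0.0935 RPM (SD, n = 3), a log2FC of 3.84 (SE 0.51, adjusted p = 1.94e-05, edgeR). From a floor level in wild type, its pooled reads rose in a ratio of 15.1 (95% counting interval 6.7 to 41.9). The paper places the siRNAs of *FY* in *fy-2* only downstream of the T-DNA insertion in the gene. It raises the possibility of an aberrant transcript from the insert, which was not tested here. Against Col-0 (1), the log2FC of *FY* was 2.68 (adjusted p = 0.000235, edgeR). The adjacent gene AT5G13475 had 359, 368 and 302 reads against 164, 200 and 244 (log2FC 0.48, adjusted p = 0.0515, edgeR). These 2 calls up were made among 21 listed genes tested in *fy-2*, with 0 down, where 0.493% of all genes were called up and 0.703% down. *FY*, the gene mutated here, had fewer than 10 reads in every Col-0 (2) library and passed the filter through the mutant libraries. The count over tested genes is therefore no support by itself. The median of the 21 was -0.35, against -0.19 for protein-coding genes and -0.03 for all genes.

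*DXO1* also moved in other mutants of the second set. It had 35, 44 and 26 reads in *ahg2-1*, above all of Col-0 (2), with a log2FC of 1.01 (SE 0.35, adjusted p = 0.0492, edgeR), which was 2.16 against Col-0 (1). In *rsr1-2* it had 78, 25 and 29 reads, again above all wild-type libraries, at 1.14 (SE 0.39) but with an adjusted p of 0.0589 (edgeR), which was 0.000484 with the study's library sizes. The *pab2 pab4* libraries went the other way, with 10, 7 and 8 reads and a log2FC of -1.35 (SE 0.41, adjusted p = 0.0264, edgeR), not called with the study's sizes. Against Col-0 (1), with 10, 1 and 8 reads, *DXO1* in *pab2 pab4* was too low to be tested, and the raw counts overlapped. The calls in *ahg2-1* and *pab2 pab4* were each lost with any of 5 of the 6 libraries left out, with adjusted p-values up to 0.217 in *ahg2-1* and 0.126 in *pab2 pab4* (edgeR). In *ccr4a*, 17, 11 and 12 reads overlapped with wild type. Between the wild types, *DXO1* had 16, 18 and 11 reads in Col-0 (2) and 10, 1 and 8 in Col-0 (1), a log2FC of 1.19 that did not pass the test (adjusted p = 0.187, edgeR).

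**Figure D5:**
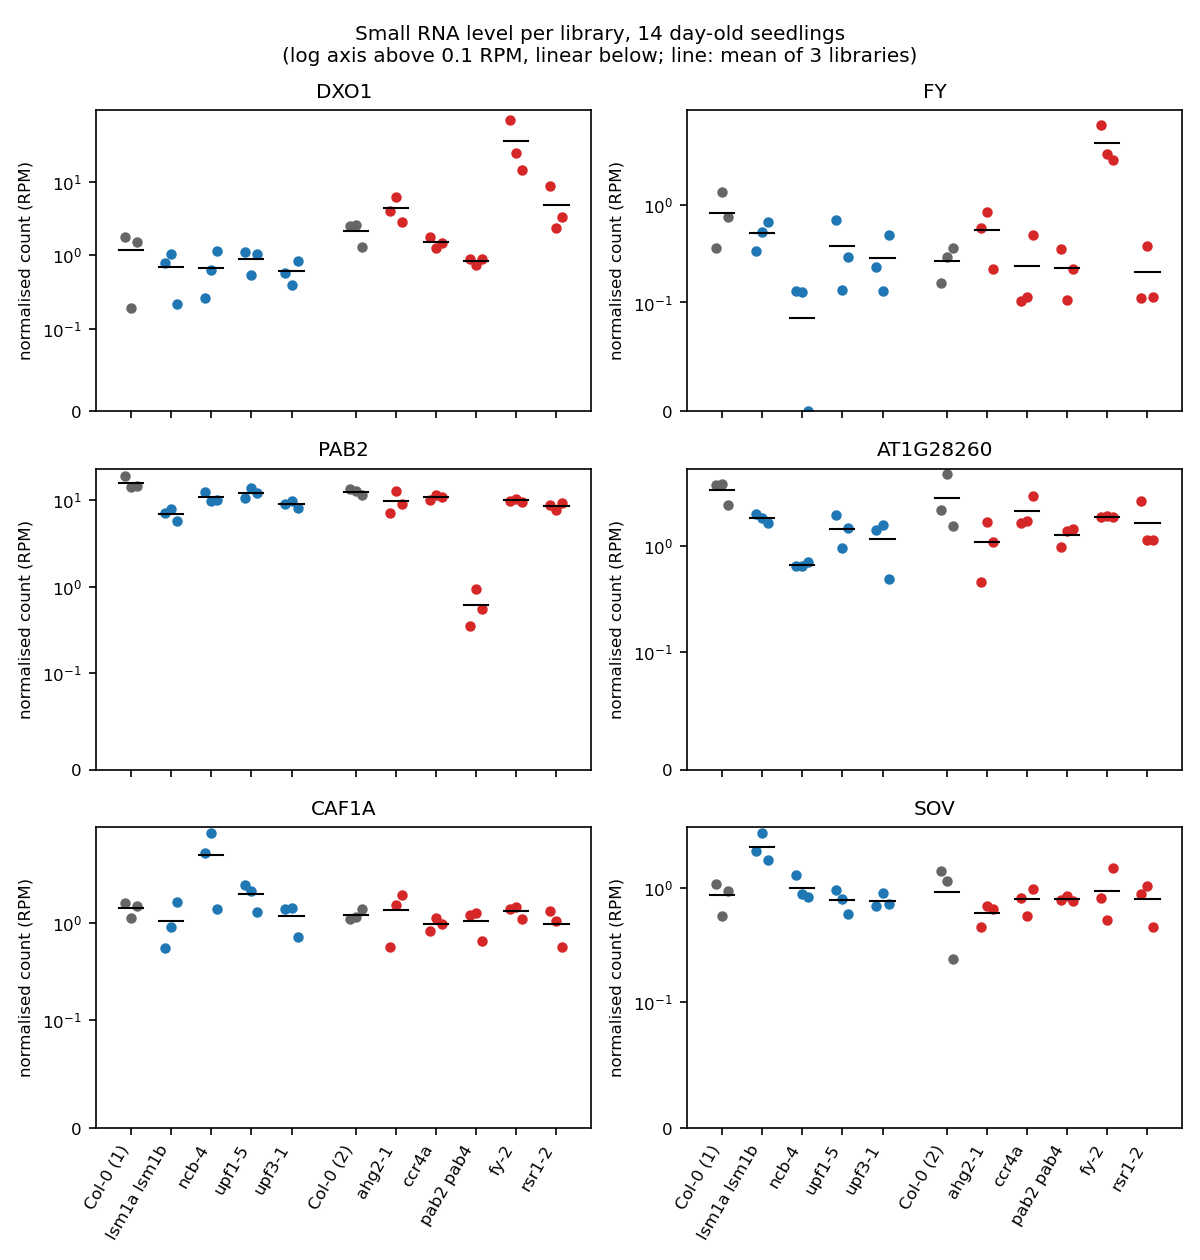
Normalised small RNA counts in RPM (vertical axes, logarithmic above 0.1) of *DXO1*, *FY*, *PAB2*, AT1G28260, *CAF1A* and *SOV* in each library of the 11 groups of 14 day-old seedlings, with grey points for wild type, blue for the mutants of the first set, red for those of the second, and lines for the means of 3 libraries. *DXO1* and *FY* are highest in *fy-2* and *PAB2* lowest in *pab2 pab4*, where its mean was 0.619 RPM. Counts here are scaled over all libraries of a set, so values differ from those of a mutant scaled with its Col-0 alone.

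The remaining mutants of the second set gave few calls. In *ahg2-1*, *DXO1* was the 1 call up and AT1G28260 the 1 call down among 19 listed genes tested, against 3.55% and 5.27% of all genes. The medians there were -0.54 for the listed genes, -0.23 for protein-coding genes and -0.03 for all genes. In *pab2 pab4* 0 of 21 were up and 4 down (*PAB2*, *PAB4*, *DXO1* and AT1G28260), where 1.71% of all genes were up and 4.47% down. *PAB2* and *PAB4* are the genes mutated there. In *ccr4a*, 0 of 21 were called, 2 had an unadjusted p under 0.05 (edgeR), DESeq2 also called 0, and 0.462% of all genes were up and 0.154% down. In *rsr1-2*, 0 of 23 were called, 4 had an unadjusted p under 0.05 (edgeR), DESeq2 called 0, and 0.895% and 1.55% of all genes were up and down. The listed genes in *rsr1-2* had a median of -0.35, against -0.29 for protein-coding genes and -0.07 for all.

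In the first set, the exonuclease gene *SOV* (AT1G77680), of the same family as *RRP44A*, rose in *lsm1a lsm1b*. The paper describes its product as a homologue of the cytoplasmic exonuclease DIS3L2 and names Ler as an accession with an active form. *SOV* had 19, 23 and 16 reads against 6, 3 and 5 in Col-0 (1), separate groups with a log2FC of 1.37 (SE 0.46, adjusted p = 0.0494, edgeR). The same mutant had 63, 59 and 52 reads on *PAB2* against 105, 75 and 78, a log2FC of -1.23 (SE 0.20, adjusted p = 0.000615, edgeR), which was -0.54 (adjusted p = 0.0517, edgeR) with the study's sizes. These were the calls among 20 listed genes tested, 1 up and 1 down, against 2.2% and 5.46% of all genes. *SOV* had fewer than 10 reads in every Col-0 (1) library and passed the filter through the mutant libraries, so this count is no support by itself. The median of the 20 was -0.60, against -0.30 for protein-coding genes and -0.03 for all genes. The call of *SOV* was lost whichever of the 6 libraries was left out, with adjusted p-values up to 0.177 (edgeR).

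In *ncb-4*, *CAF1A* (AT3G44260, chromosome 3, 15952008 to 15953346) rose unevenly. It had 41, 67 and 10 reads against 9, 6 and 8 in Col-0 (1), and the third mutant library lay within the wild-type range after normalization. The log2FC was 1.82 (SE 0.49, adjusted p = 0.0111, edgeR), and the adjusted p was 0.108 without *ncb-4* replicate 2 and 0.0644 without Col-0 (1) replicate 2 (edgeR). Its paralog *CAF1B*, with the shared stretch printed above, had 5, 16 and 1 reads against 0, 1 and 0 and was too low to be tested. The adjacent gene AT3G44261 had 13, 17 and 10 reads against 6, 4 and 4, separate in raw counts, with a log2FC of 0.98 (adjusted p = 0.147, edgeR). AT1G28260 was the other call among the 19 listed genes tested, where 3.35% of all genes were up and 7.27% down, and the median of the 19 was -0.63 against -0.24 for protein-coding genes. *CAF1A* had fewer than 10 reads in every Col-0 (1) library and passed the filter through the mutant libraries. AT1G28260 had fewer than 10 in every mutant library and passed through Col-0 (1), so this count is no support by itself.

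AT1G28260 (chromosome 1, 9875527 to 9879433) was called down in 5 mutants of 14 days. In the first set it had 21, 20 and 13 reads in Col-0 (1) and 5, 5 and 5 in *ncb-4*, with no overlap and a log2FC of -2.33 (SE 0.43, adjusted p = 0.000494, edgeR). In *upf3-1* it had 12, 12 and 4 reads (-1.51, SE 0.42, adjusted p = 0.0083, edgeR) and in *upf1-5* 14, 7 and 10 (-1.19, SE 0.40, adjusted p = 0.0496, edgeR). For the second set, Col-0 (2) had 14, 33 and 13 reads, *ahg2-1* 4, 12 and 10 (-1.42, SE 0.48, adjusted p = 0.0428, edgeR) and *pab2 pab4* 11, 13 and 13 (-1.19, SE 0.41, adjusted p = 0.0439, edgeR). Only the call in *ncb-4* was kept with each library left out and with the study's sizes. The 33 reads of Col-0 (2) replicate 2 bore on both calls of the second set: without that library the log2FC was -0.81 in *ahg2-1* (adjusted p = 0.361, edgeR) and -0.58 in *pab2 pab4* (adjusted p = 0.419, edgeR).

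The NMD mutants gave few other calls. In *upf3-1*, *PAPS4* had 21, 18 and 20 reads against 42, 12 and 38 in Col-0 (1), overlapping groups with a log2FC of -1.21 (SE 0.35, adjusted p = 0.00958, edgeR) that was not called without Col-0 (1) replicate 1 or 3. With AT1G28260 it made 2 calls down and 0 up among 20 listed genes, against 7.76% and 4.39% of all genes. In *upf1-5*, AT1G28260 was the 1 call down of 20 tested with 0 up, against 3.73% and 1.56%. With the study's library sizes this call was lost, and *ESP4*, the symplekin homologue of the cleavage complex, was called up instead, with 16, 12 and 12 reads against 3, 6 and 3 (log2FC 1.72, adjusted p = 0.018, edgeR; 1.31 and 0.112 after TMM). The median log2FC of the listed genes was -0.42 in both mutants, with -0.26 in *upf3-1* and -0.15 in *upf1-5* for protein-coding genes.

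Smaller differences passed the test without reaching the fold threshold. *PAB2* was lower in *ncb-4* (96, 77 and 71 reads, -0.59, adjusted p = 0.0212), *upf3-1* (78, 75 and 67, -0.81, adjusted p = 0.00238) and *rsr1-2* (80, 80 and 81, -0.57, adjusted p = 0.042), all in edgeR. *DCP5* was lower in *lsm1a lsm1b* (24, 30 and 23 reads, -0.99, adjusted p = 0.022), in *upf1-5* (19, 20 and 30, -0.88, adjusted p = 0.0472) and in *ahg2-1* (23, 20 and 20, -0.90, adjusted p = 0.0386), in the edgeR. AT1G02080 in *ahg2-1* (31, 26 and 26 against 40, 55 and 36 reads, -0.89, adjusted p = 0.0235) and *VCS* in *pab2 pab4* (30, 24 and 40 against 36, 38 and 38, -0.74, adjusted p = 0.0488) complete these results (edgeR). None of them passed the test with the study's library sizes, where the log2FC values were -0.67 to -0.04.

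By role, the 9 mutants of 14 days gave 5 calls down in 28 tests of NMD genes, all of AT1G28260. Poly(A)-binding genes gave 3 calls down in 27 tests. These were *PAB2* and *PAB4* in *pab2 pab4*, the plants mutated in them, and *PAB2* in *lsm1a lsm1b*. Decapping genes gave 2 calls up and 1 down in 41 tests, all of *DXO1*. The exosome group gave 1 call up in 14 tests, of the exonuclease gene *SOV*. Deadenylation gave 1 up in 22. Cleavage and polyadenylation gave 1 up and 1 down in 29, and the call up was *FY* in its own mutant *fy-2*. Beside these stand the 0.462% to 4.39% of all genes called up and the 0.154% to 7.76% called down in a mutant. Calls on a gene in its own mutant, or on one that passed the filter through a single group, are no support for a role by themselves. The 5′ exonucleases gave 0 calls in 23 tests, and SKI genes were not tested in these mutants. Between the wild types of 14 days, Col-0 (2) against Col-0 (1), 0 of 20 listed genes were called and 1 had an unadjusted p under 0.05 (edgeR), DESeq2 called 0, and 1.67% and 1.29% of all genes were up and down.

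Whether a call in one mutant differed from another mutant of the set was tested directly, in 16 contrasts over all genes in which 0.245% to 6.75% of the genes were called. Of 39 pairs of mutants in which a listed gene was called in 1 member only, 19 were called in the direct contrast. Several of these were *PAB2*, *PAB4* or *FY* in contrasts with the plants mutated in them. Over all contrasts, 14 of 24 called results were on genes mutated in neither plant. *DXO1* was higher in *fy-2* than in *ahg2-1*, *ccr4a*, *pab2 pab4* and *rsr1-2*. It was also called in *ahg2-1* and *pab2 pab4*, so their contrasts with *fy-2* are not among the 39. *SOV* was higher in *lsm1a lsm1b* than in *upf1-5* and *upf3-1*, while the difference between *lsm1a lsm1b* and *ncb-4* was not called. *CAF1A* was higher in *ncb-4* than in each other mutant of its set. For pairs not called in the direct contrast, a call in one mutant and none in the other does not show that they differ.

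Another 53 genes of the same pathways, not on the list, were examined for comparison, of which 3 to 10 passed the filter in a mutant. *ERF1-1* (AT5G47880), a translation release factor, had 19, 24 and 16 reads in *upf1-5* and 25, 37 and 29 in *upf3-1* against 0, 7 and 4 in Col-0 (1), log2FC values of 1.98 (SE 0.57, adjusted p = 0.0222, edgeR) and 2.44 (SE 0.52, adjusted p = 0.000713, edgeR). Both mutants share these Col-0 (1) libraries. In *cstf64-2*, *ERF1-2* (AT1G12920) had 19, 20 and 15 reads against 4, 3 and 10 (1.41, adjusted p = 0.03, edgeR) and *LSM3A* (AT1G21190) 23, 19 and 23 against 7, 3 and 6 (1.77, adjusted p = 0.00422, edgeR). None of these genes was called down in any mutant or called up in the other 7.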

How the data were processed

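Values were the raw counts that the authors deposited, whole numbers of small RNA reads or alignments per Araport11 gene, with no normalization. By the study's methods, adapters were removed, reads were mapped to TAIR10 with Bowtie without mismatches and with up to 10 places per read, and HTSeq-count counted them in exons. The submitters' processing notes name cutadapt 1.9, Bowtie 1.0.0 and HTSeq 0.6.0. The strand setting of the counts is not given in the sources used here. Among genes with a mean of 10 reads or more, 171 in the first set, 162 in the second and 0 in the set of *cstf64-2* shared their counts in every library with another gene, but 0 listed genes did. The 5 counter lines per file stayed out of all tests. Reads carry no molecular identifiers, so intervals and floors (3 reads) cover counting error only.

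Mutants were tested against their own Col-0 with edgeR 4.0.16 (R 4.3.3), using filterByExpr, TMM normalization and the quasi-likelihood test, and p-values were adjusted by Benjamini-Hochberg over every gene tested. The test gives no SE, so the size of the log2 fold change divided by the square root of F is printed, an approximation. Intervals of pooled ratios are exact at 95%. Mutants of a set were contrasted in one fit. The common biological coefficient of variation was 0.122 to 0.175. The labels name the libraries as separate samples and the paper as biological triplicates.

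Gene positions, exon lengths and sequences were read from TAIR10.1, whose annotation matched 36899 of 37184 identifiers. Names of listed genes are those of the list, and a gene without a name there is given by its identifier. In the annotation the symbols of *DXO1*, *SOV* and *CCR4B* are the identifiers alone. Named genes are the mutated genes, every listed gene called with separate raw counts or with an adjusted p under 0.05, and in each role the gene highest in wild type per kb of exon. *PAB8*, *CAF1B*, *HEN2*, the other uncalled genes of *cstf64-2* *ESP4* and the neighbours of *DXO1*, *FY* and *CAF1A* were added once their values had been seen. The members and lists were chosen with earlier results of these data known.

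The alternatives were DESeq2's size factors, the study's library sizes, rRNA genes left out, a minimum mean of 10 counts or no filter, DESeq2 1.42.0, a replicate block, one fit per set, the other Col-0 of 14 days, and each library left out. The tests were tested on simulated data. Python 3.11.15 with numpy 2.4.6, pandas 2.3.3, scipy 1.17.1 and matplotlib 3.10.9 served for the rest. Single read lengths, mRNA levels and genome profiles are not analysed here. One result on a gene outside the list is not reported here.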

Additional observations from a re-analysis of the deposited data

Results flagged for a closer look

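The levels of 6 listed genes differed between mutants of one set in a direct contrast (edgeR's quasi-likelihood test on all groups of the set, Benjamini-Hochberg adjustment over all genes, n = 3 per group). Only results on genes mutated in neither plant of a contrast are given. Each value is the log2 difference of the first mutant minus the second.

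*DXO1* differed in 6 contrasts. Against *fy-2*, with 588, 234 and 114 reads, the difference was -3.08 for *ahg2-1* (SE 0.36, adjusted p = 3.53e-08, edgeR), -4.56 for *ccr4a* (adjusted p = 2.83e-10, edgeR) and -5.40 for *pab2 pab4* (adjusted p = 9.85e-12, edgeR), and *fy-2* exceeded *rsr1-2* by 2.92 (adjusted p = 9.59e-08, edgeR). *pab2 pab4* was lower than *rsr1-2*, at -2.48 (adjusted p = 0.00377, edgeR), and *ahg2-1* higher than *pab2 pab4*, at 2.32 (adjusted p = 0.00757, edgeR). No library of *fy-2* overlapped with any library of the other 4 mutants in raw counts.

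For *CAF1A*, *lsm1a lsm1b* minus *ncb-4* gave -2.27 (adjusted p = 0.000888, edgeR), *ncb-4* minus *upf3-1* gave 2.11 (adjusted p = 0.0017, edgeR) and *ncb-4* minus *upf1-5* gave 1.35 (adjusted p = 0.0406, edgeR). These rest on 41 and 67 reads in replicates 1 and 2 of *ncb-4*, since its replicate 3 had 10. *SOV* differed by 1.52 between *lsm1a lsm1b* and *upf1-5* (adjusted p = 0.0214, edgeR) and by 1.55 between *lsm1a lsm1b* and *upf3-1* (adjusted p = 0.0152, edgeR). The contrast of *lsm1a lsm1b* with *ncb-4* gave 1.16 for *SOV* and was not called (adjusted p = 0.0698, edgeR). Its call against Col-0 (1) was lost with any of the 6 libraries left out. AT1G28260 was higher in *lsm1a lsm1b* than in *ncb-4*, at 1.45 (adjusted p = 0.0332, edgeR).

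*FPA* had 8, 1 and 3 reads in *ccr4a* and 12, 16 and 17 in *rsr1-2*, and *ccr4a* minus *rsr1-2* gave -1.80 (adjusted p = 0.0472, edgeR). In *pab2 pab4* there were 19, 23 and 8 reads on *UPF1*, in *fy-2* 47, 34 and 22, and *pab2 pab4* minus *fy-2* gave -1.23 (adjusted p = 0.0127, edgeR). Neither gene was called against Col-0 (2) in any of these mutants.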

How the results depend on the processing

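Of 25 calls, 14 were kept with each library left out and under every setting that tested the gene, among them the 10 in *cstf64-2*. Of the 15 calls in the mutants of 14 days, 5 were kept with each library left out (*PAB2* in *lsm1a lsm1b* and *pab2 pab4*, AT1G28260 in *ncb-4*, *DXO1* and *FY* in *fy-2*). No log2 fold change of a called gene reversed. With the study's library sizes the number of listed genes called was 1 in *lsm1a lsm1b* (2 before), 0 in *upf3-1* (2), 1 in *ahg2-1* (2), 1 in *pab2 pab4* (4) and 2 in *rsr1-2* (0; *DXO1* and *FPA* up), and in *upf1-5* 1 call down became 1 up, of *ESP4*. DESeq2 called 1 in *lsm1a lsm1b*, 0 in *upf1-5*, 0 in *upf3-1*, 0 in *ahg2-1*, 1 in *pab2 pab4* and 1 in *fy-2*. For 6 of the 15 calls it gave no adjusted p. Without the filter there were 1, 0, 2 and 1 in *lsm1a lsm1b*, *upf1-5*, *pab2 pab4* and *rsr1-2*. A mean of at least 10 counts gave 1 in *lsm1a lsm1b*, 1 in *ahg2-1* and 4 in *cstf64-2* (10), where fewer genes were tested. DESeq2's size factors gave 0 in *upf1-5* and 1 in *rsr1-2*, leaving out rRNA genes 0 in *upf1-5* and 1 in *ahg2-1*, one fit for all groups 1 in *ahg2-1*, and the other Col-0 1 in *rsr1-2*. The causes were not tested.

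With 1 library left out, the number of listed genes called ranged from 1 to 3 in *lsm1a lsm1b* (1 without Col-0 (1) replicate 1 or *lsm1a lsm1b* replicate 1 or 3), 1 to 3 in *ncb-4* (1 without *ncb-4* replicate 2), 0 to 1 in *upf1-5* (0 without Col-0 (1) replicate 1, *upf1-5* replicate 1 or replicate 2), 1 to 2 in *upf3-1* (1 without Col-0 (1) replicate 1 or 3 or *upf3-1* replicate 3), and 0 to 2 in *ahg2-1* (0 without Col-0 (2) replicate 2 or *ahg2-1* replicate 1, 1 without *ahg2-1* replicate 3). It was 1 to 4 in *pab2 pab4* (1 without Col-0 (2) replicate 2 or *pab2 pab4* replicate 1 or 2), 0 to 1 in *rsr1-2* (1 without Col-0 (2) replicate 1 or 2 or *rsr1-2* replicate 2 or 3) and 10 to 14 in *cstf64-2* (14 without Col-0 (3) replicate 3), and it stayed at 2 in *fy-2* and at 0 in *ccr4a* and in Col-0 (2) against Col-0 (1).

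The replicate numbers do not pair the samples: same-numbered libraries deviated together with correlations of -0.14 to 0.281 across genes, and in no comparison were all 3 above 0.1. With the replicate block, 1 listed gene was called in *lsm1a lsm1b*, 0 in *upf1-5* and 1 in *ahg2-1*, and the other numbers did not change. Counts of under 10 reads limit most results, since 19 listed genes passed the filter in no mutant.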
